A study of Mus musculus with 9 samples.

Results

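Metabotropic glutamate receptors are G-protein-coupled receptors for glutamate, encoded by the Grm genes. The 6 of them described here, Grm2, Grm3, Grm4, Grm5, Grm7 and Grm8, were taken by name from a table of 31052 genes. Nuclear RNA was sequenced from mouse hippocampal pyramidal cells of WT genotype, in 5 libraries of place cells and 4 libraries of silent cells. Cells had been classed by imaging during spatial navigation and then phototagged for the collection of nuclei, and no other treatment was given in the labels. How many nuclei went into each library was not given in the sources used here. Each title names its own mouse number, but nothing else states that every library came from a separate animal. The p-values therefore measure only the spread between these libraries.

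Receptors of group I couple to Gq, phospholipase C and calcium release, and in hippocampal pyramidal cells they sit mostly around the postsynaptic density. Receptors of groups II and III couple to Gi/o proteins, lower adenylyl cyclase activity and restrain transmitter release, largely at presynaptic sites. Among the members, Grm5 belongs to group I, Grm2 and Grm3 to group II, and Grm4, Grm7 and Grm8 to group III.

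Libraries held 15.3 M to 22.0 M reads in place cells and 14.05 M to 22.4 M reads in silent cells. Markers of pyramidal cells were present in every library, with a summed level of 1421 to 2206 RPM (reads per 1000000, after scaling the libraries to a common composition) in place cells and 1642 to 2342 RPM in silent cells. The 6 CA1 markers summed to 404 to 901 RPM in place cells and 657 to 898 RPM in silent cells. Markers of other cells were also present. The 8 oligodendrocyte markers summed to 161 to 3103 RPM in place cells, with 1358, 1838 and 3103 RPM in replicates 1, 2 and 3, against 105 to 538 RPM in silent cells. The 6 interneuron markers summed to 52.8, 191, 211, 26.4 and 143 RPM in place replicates 1 to 5 and to 66, 194.6, 762 and 70.6 RPM in silent replicates 1 to 4. The sum of silent replicate 3 was mostly Vip, a neuropeptide gene, at 639.6 RPM. The interneuron markers Gad2 and Slc32a1 were at 64.9 and 12.7 RPM there. Gad1, which encodes a GABA-synthesising enzyme, was highest in place replicate 3 at 184 RPM, but Gad2 and Slc32a1 were at 0 in that library. Gad2 was highest in place replicate 5 at 98.6 RPM, and Slc32a1 in silent replicate 3. Silent replicate 1, silent replicate 4 and place replicate 3 lay farthest out on principal components 1, 2 and 3, with 22.8, 16.6 and 15.8% of the variance. Some library is always farthest, and place replicate 1 was so on component 4 (14.3%). The comparison of the members between the classes and the shares of the receptor groups were also made without the first 3 of these libraries. Below they are called the 3 libraries apart, a choice made from these same data. Folds of other genes, and correlations between genes, are given over all 9 libraries only. Y-linked transcripts were found throughout the silent libraries and in place replicate 1, and were at or near 0 in place replicates 2 to 5. The cell classes were thus nearly split by these transcripts as well. Xist was at 1.73, 1396, 861, 771 and 997 RPM in place replicates 1 to 5. In silent replicates 1 to 4 it was at 316.4, 0, 2.92 and 0.0442 RPM, so silent replicate 1 held both Xist and Y-linked transcripts. Single libraries correlated at r = 0.55 to 0.77 over the genes tested, and only 58.1% of the 15225 genes tested had reads in all 9 libraries.

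Grm5 was by far the most abundant receptor, and its level did not separate the cell classes. The gene lies on chromosome 7, and its receptor, mGluR5, drives Gq signalling at excitatory synapses. Place replicates 1 to 5 had 1600.3, 846, 1569.5, 1264 and 1247 RPM of Grm5, and silent replicates 1 to 4 had 943, 1825, 1224 and 1113.5 RPM. The lowest library was a place library and the highest a silent one, so the ranges overlapped almost fully. Grm5 averaged 1305 ± 305 RPM in place cells (SD, n = 5) and 1276 ± 383 RPM in silent cells (SD, n = 4). On the scale of log2(scaled deposited value + 1), used for every fold below, the difference was 0.04 ± 0.23 (SE; limma, adjusted p = 0.987). Its 95% interval ran from a ratio of 0.73 to one of 1.45. The difference was -0.31 without the 3 libraries apart. Its sign changed when any one of place replicates 1 and 3 and silent replicates 1 and 4 was left out (range over all single omissions, -0.09 to 0.23). With Y-linked transcripts as a covariate the difference was 0.37. Only place replicate 1 among the place libraries had these transcripts, so that value compares this library alone with the silent libraries.

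**Figure D1:**
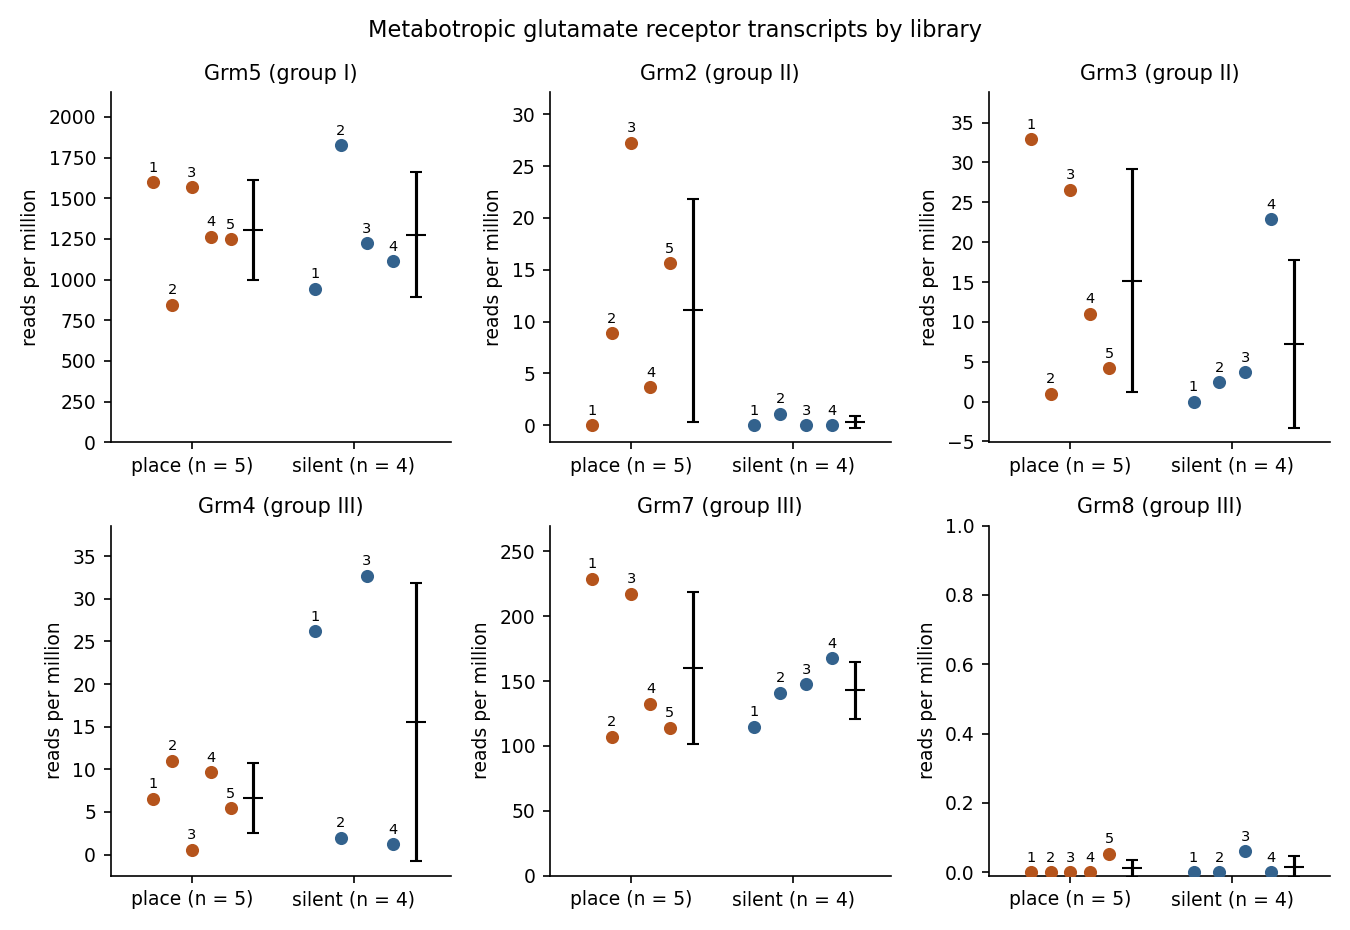
Level of each metabotropic glutamate receptor gene in every library, in RPM, with place libraries at the left and silent libraries at the right of each panel; digits are replicate numbers and bars are the mean ± SD. Grm5 lay between 846 and 1825 RPM with overlapping classes, and Grm2 reached 27.3 RPM in place cells against 1.11 RPM in silent cells.

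Over the 9 libraries the coefficient of variation of Grm5 was 24.7%, beside a median of 21.5% for the 122 tested genes with a mean within 2-fold of its own. Its mean lay above that of 99.8% of the genes tested. Reads were numerous, 119822 in place cells and 94711 in silent cells, so the exact Poisson 95% interval in place replicate 1 was only 1580 to 1621 RPM. Such intervals cover counting error only, because reads amplified without molecular identifiers are not independent molecules. The spread between libraries was much wider than these intervals.

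Grm7 followed in level and likewise showed no difference between the classes beyond the spread. Its receptor, mGluR7, is a group III autoreceptor of the presynaptic active zone, and the gene lies on chromosome 6. Grm7 was at 228.7, 107, 217, 132.6 and 114 RPM in place replicates 1 to 5, and at 114.7, 141, 147.6 and 167.7 RPM in silent replicates 1 to 4. Place replicates 1 and 3 were the highest of all libraries, while the other place libraries lay within or just below the silent range. The means were 159.9 ± 58.5 RPM in place cells (SD, n = 5) and 142.8 ± 21.9 RPM in silent cells (SD, n = 4), a log2 difference of 0.10 ± 0.30 (SE; limma, adjusted p = 0.965). The 95% interval of the ratio was 0.68 to 1.69. The difference was -0.06 without the 3 libraries apart and -0.17 with oligodendrocyte marker level in the model. It was 0.43 with genes detected as a covariate. With Y-linked transcripts as a covariate it was 0.69, a value that compares place replicate 1 alone with the silent libraries. Oligodendrocyte markers were high in place replicates 1, 2 and 3, of which replicates 1 and 3 had the most Grm7 and replicate 2 the least of all libraries. An antisense transcript, Gm20387, overlaps exons of Grm7, and whether reads were counted by strand is not given in the sources used here.

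Grm5 and Grm7 kept their order in each library. Divided by exon length, Grm5 averaged 126 ± 31.2 RPM per kilobase and Grm7 25.9 ± 7.54 (SD, n = 9). The ratio between them averaged 4.89 ± 0.96 in place cells and 5.18 ± 1.56 in silent cells, and Grm5 was the higher in 9 of 9 libraries, by 3.81- to 7.44-fold. Grm7 in turn lay above every lower member in 9 of 9 libraries. The low receptors had no fixed order: Grm3 averaged 3.82 ± 4.11, Grm4 1.77 ± 1.91 and Grm2 1.28 ± 1.95 RPM per kilobase. Grm3 exceeded Grm4 in 4 of 5 place libraries and 2 of 4 silent libraries, and Grm4 exceeded Grm2 in 3 of 5 place libraries and 4 of 4 silent libraries.

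**Figure D2:**
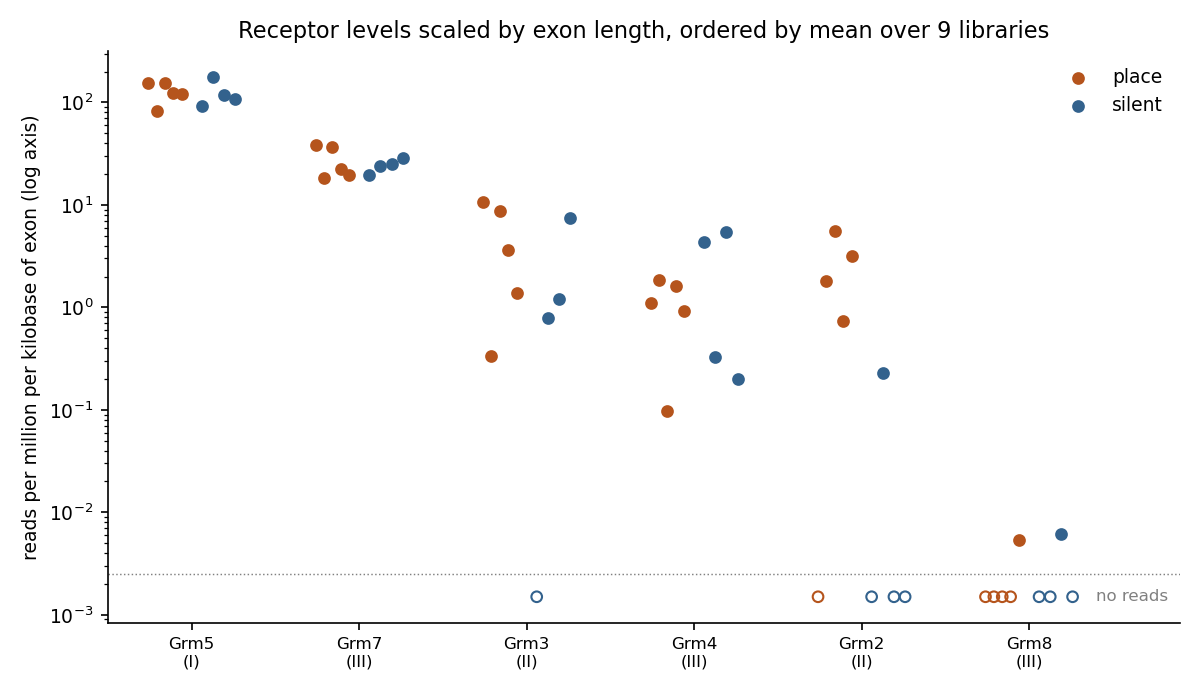
Receptor levels per kilobase of exon, on a log axis, in place and silent libraries. Grm5 lay above Grm7 in all 9 libraries and Grm7 above the other 4 members in all 9, while Grm3, Grm4 and Grm2 changed places between libraries.

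Grm2 was the member with the largest log2 difference between the classes, which did not pass the test across genes. Its receptor, mGluR2, is a group II receptor known in the hippocampus mainly from dentate granule cells and their mossy fibres. The gene lies on chromosome 9, where an antisense transcript, Gm28111, overlaps its exons. As for Grm7, whether reads were counted by strand is not given. Grm2 was at 0, 8.89, 27.3, 3.64 and 15.7 RPM in place replicates 1 to 5, and at 0, 1.11, 0 and 0 RPM in silent replicates 1 to 4. These levels rest on 0, 158, 513, 80 and 293 reads in the place libraries and on 0, 22, 0 and 0 reads in the silent libraries. Of the 5 place libraries, 4 thus lay above all silent libraries, and place replicate 1 shared their value of 0. The groups overlapped for each of the 5 members tested, whereas 288 of 15225 genes (1.89%) had groups that did not overlap, with the place libraries higher for 198 (1.3%) and lower for 90 (0.591%).

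Grm2 averaged 11.1 ± 10.8 RPM in place cells (SD, n = 5) and 0.278 ± 0.555 RPM in silent cells (SD, n = 4). The log2 difference was 5.73 ± 2.39 (SE; limma, p = 0.0333, adjusted p = 0.861), and an exact two-sided permutation test of its libraries' class labels (126 arrangements) gave p = 0.0794, where 0.00794 was the smallest p possible. With so many zeros the fold depends on the constant added, and it was 7.56 with a constant of 0.1, 3.87 with 10 and 2.61 as log2(RPM + 1). At an unadjusted p under 0.05, 577 of 15225 genes (3.79%) were higher in place cells, Grm2 being the 1 member among them, and 194 (1.27%) were lower, with no member. No gene (0%) passed an adjusted p of 0.05 in either direction, and 771 genes (5.06%) had an unadjusted p under 0.05, while voom on the recovered reads called 4 genes (0.0263%) and none of the members.

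The libraries with Grm2 reads were also nearly those without Y-linked transcripts. All 4 libraries lacking these transcripts, place replicates 2 to 5, held Grm2 reads, whereas of the 5 that had them only silent replicate 2 did. With the Y-linked transcripts as a covariate the Grm2 difference became -1.42. Among the place libraries only replicate 1, without Grm2 reads, had these transcripts, so that value compares this library alone with the silent libraries. With the number of genes detected as a covariate the Grm2 difference was 3.24. Cell class and the Y-linked split cannot be told apart in these libraries. The 5 dentate granule markers summed to 26.9, 50.7, 269.6, 10.7 and 57.6 RPM in place replicates 1 to 5 and to 110, 90.5, 70 and 88.1 RPM in silent replicates 1 to 4. Their sum was highest in the library with the most Grm2, and in the silent libraries, where Grm2 was at or near 0, it was higher than in the other 4 place libraries. Single markers differed from the sum. Dsp was at 0, 11.7, 23, 0 and 7.05 RPM in place replicates 1 to 5 and at 0, 21.8, 0 and 0 RPM in silent replicates 1 to 4. Place replicate 1 and silent replicates 1, 3 and 4 had no Grm2 reads. In these, in order, Prox1 was at 3.98, 67.4, 19.5 and 28.1 RPM and Stxbp6 at 0, 42.8, 22.8 and 54.7 RPM. There C1ql2 was at 0, 0, 15.0 and 1.55 RPM and Lct at 22.9, 0.142, 12.7 and 3.84 RPM. Place replicates 2 to 5 and silent replicate 2 held Grm2 reads. In that order, Prox1 was at 16.7, 115, 7.86, 35.6 and 33.1 RPM and Stxbp6 at 1.29, 41.8, 0, 11.65 and 1.06 RPM. In the same order, C1ql2 was at 17.2, 56.1, 1.86, 1.015 and 12.5 RPM and Lct at 3.88, 33.6, 1.0001, 2.19 and 21.96 RPM. The part of dentate granule RNA in the Grm2 values was not tested. Without place replicate 3 the Grm2 difference was 4.95, and without the 3 libraries apart it was 3.53 (limma, adjusted p = 0.96). Over all alternatives run, the adjusted p of Grm2 lay between 0.616 and 0.9996. In such bulk libraries, fewer cells of a type and less RNA per cell cannot be told apart.

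Grm3, the other group II gene, varied widely within both classes. Its receptor, mGluR3, is found on astrocytes as well as on neurons, and the gene lies on chromosome 5. Grm3 was at 32.9, 1.01, 26.6, 11 and 4.17 RPM in place replicates 1 to 5, and at 0, 2.42, 3.71 and 22.9 RPM in silent replicates 1 to 4. High and low libraries occurred in both classes, and silent replicate 4 exceeded 3 of the 5 place libraries. The means were 15.1 ± 14 RPM in place cells (SD, n = 5) and 7.26 ± 10.5 RPM in silent cells (SD, n = 4), with a log2 difference of 2.76 ± 2.10 (SE; limma, adjusted p = 0.861). The difference was 0.50 without silent replicate 1, the library at 0, and 4.16 without silent replicate 4. Without the 3 libraries apart it was 1.06. The 6 astrocyte markers summed to 46.6 to 1367 RPM in place cells and 51.6 to 330 RPM in silent cells. They were highest in place replicate 3, where Grm3 was high, and next in silent replicate 2, where Grm3 was low. In the other libraries with high Grm3 the sum was 116 RPM in place replicate 1, mainly Gfap, Slc1a3 and Gja1, and 81.5 RPM in silent replicate 4, mainly Slc1a3 and Aldh1l1, with Aqp4 at 0 in both. The part of astrocyte RNA in the Grm3 values was not tested.

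**Figure D3:**
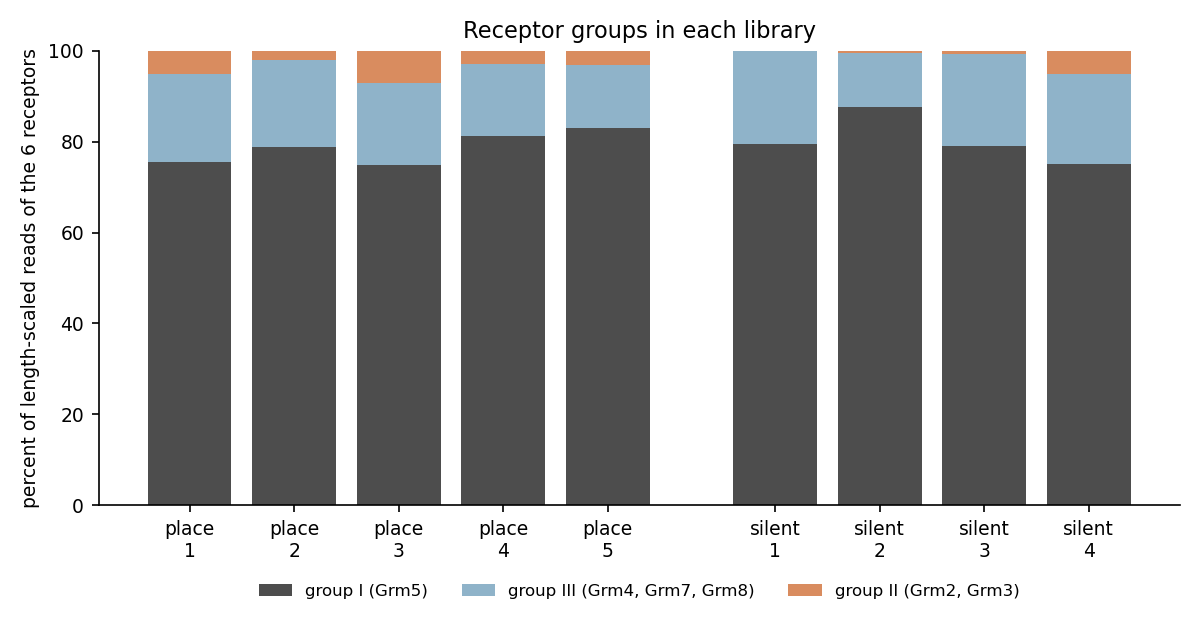
Share of the reads per kilobase of the 6 receptors that fell in group I, II and III, in percent, for each library, with place libraries left of silent libraries. Group I took 74.9 to 83.0% in place cells and 75.0 to 87.6% in silent cells.

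Among the group III genes, Grm4 was low and uneven. Grm4 encodes mGluR4, a presynaptic receptor best known from cerebellar granule cells, and lies on chromosome 17. It was at 6.57, 11, 0.585, 9.64 and 5.45 RPM in place replicates 1 to 5, and at 26.2, 1.97, 32.7 and 1.19 RPM in silent replicates 1 to 4. Silent replicates 1 and 3 were the highest, and the remaining silent libraries fell within the place range. The means were 6.65 ± 4.07 RPM in place cells (SD, n = 5) and 15.5 ± 16.3 RPM in silent cells (SD, n = 4), and the log2 difference was -0.52 ± 1.5 (SE; limma, adjusted p = 0.965). Its sign changed without place replicate 3 (0.23), silent replicate 1 (0.14) or silent replicate 3 (0.24). Without the 3 libraries apart the difference was -0.03.

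Grm8, on chromosome 6, encodes mGluR8, a further presynaptic group III receptor. A single read was counted in place replicate 5 and a single read in silent replicate 3, with 0 in the rest. The 2 reads lie under the floor of 3 reads, which over all 165.29 M scaled reads amounts to 0.0182 RPM. Grm8 was therefore not detectable at this depth and was the 1 member that did not pass the filter on low values (10 or more deposited units in 4 or more libraries).

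The shares of groups I and III overlapped widely between the classes, and group II was lower in 3 of 4 silent libraries than in any place library. Per kilobase, group I made up 78.7 ± 3.53% of the 6 receptors in place cells (SD, n = 5) and 80.2 ± 5.27% in silent cells (SD, n = 4). Group III made up 17.3 ± 2.34% in place cells and 18.1 ± 4.14% in silent cells. Group II made up 4.05 ± 2.01% in place cells (SD, n = 5) and 1.62 ± 2.40% in silent cells (SD, n = 4), a difference that was not tested. That difference was 2.43 percentage points per kilobase of exon, 1.44 per kilobase of coding sequence and 1.08 with reads not divided by length. The group I difference, -1.55 points, became 0.89 without silent replicate 2. Without the 3 libraries apart, the differences were -3.63 points for group I, 2.66 for group II and 0.97 for group III. Over all libraries the group III difference was -0.88 points, so its sign changed. By library the group II share was 5.22, 2.05, 6.99, 2.87 and 3.12% in place replicates 1 to 5, and 0, 0.502, 0.806 and 5.18% in silent replicates 1 to 4. Only silent replicate 4 among the silent libraries reached the place range, and its group II reads were those of Grm3.

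**Figure D4:**
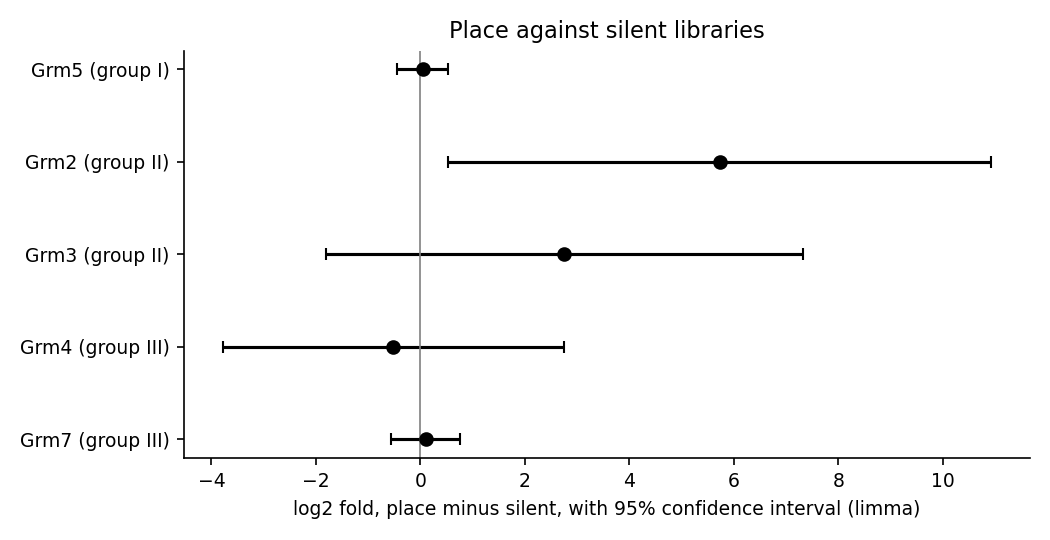
Log2 fold of place over silent libraries for the 5 members tested; points are limma estimates and bars their 95% intervals. The intervals of Grm5 and Grm7 were narrow and crossed 0, and those of Grm2, Grm3 and Grm4 spanned several log2 units. Those of Grm3 and Grm4 crossed 0. That of Grm2, 0.53 to 10.9 without adjustment over genes, did not (limma, adjusted p = 0.861).

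Across the 9 libraries, which share preparation and composition differences, the log2 levels of Grm5 and Grm7 had a Pearson r of 0.65, and those of Grm3 and Grm7 of 0.68. Symbols of predicted gene models (Gm, Rik, AC, AL and BC) were left out of the search for similar genes. Among the other tested genes, those most like Grm5 were Pmvk (r = 0.92), Glt8d1 (0.91) and Cdkl1 (0.90). Those most like Grm7 were Ccdc85a (0.94), Bex1 (0.91) and Atg4d (0.90). For Grm2 they were Arhgef15 (0.99), Pcyt1b (0.99) and the pseudogene Rpl23a-ps2 (0.98), whose reads cannot be separated with certainty from those of its parent gene. For Grm3 they were P3h4 (0.98), Bmpr1a (0.97) and Pla2g6 (0.96), and for Grm4 they were Dym (0.96), Pigo (0.95) and Acsl4 (0.94). Each was picked as among the closest of many genes over 9 points, so such values are a description only.

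The genes through which the receptors signal were followed as 4 lists, of which 65 genes were tested. None passed an adjusted p of 0.05. At an unadjusted p under 0.05, 2 of 65 were higher in place cells and 0 lower, beside 3.79% and 1.27% of all genes tested. None had groups that did not overlap, beside 1.89% of all genes. The median log2 difference was 0.03 over these 65 genes and 0.20 over all 15225.

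For group I transduction, 17 of 21 genes were tested, 11 with a positive and 6 with a negative difference (median 0.06). Plcb4, a phospholipase C that Gq activates, averaged 32.6 ± 30.4 RPM in place cells (SD, n = 5) and 7.45 ± 10.3 RPM in silent cells (SD, n = 4), a log2 difference of 4.38 ± 1.97 (SE; limma, adjusted p = 0.861). The cation channel genes Trpc1 and Trpc4, whose channels open downstream of group I receptors, had differences of -1.23 and -0.46. For the scaffolds and partners of group I receptors, 13 of 14 names were in the table and tested, 4 positive and 9 negative (median -0.13). Homer1, which encodes a scaffold that binds the tail of mGluR5, averaged 394 ± 100.2 RPM in place cells (SD, n = 5) and 475 ± 58 RPM in silent cells (SD, n = 4), a log2 difference of -0.31 ± 0.23 (SE; limma, adjusted p = 0.861). Tamalin, another receptor scaffold, differed by 0.64 and Ncdn, the gene of neurochondrin, by 0.38.

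For group II and III transduction, 25 of 25 genes were tested, 15 positive and 10 negative (median 0.13). Kcnj6, a subunit of the potassium channels that Gi/o proteins open, was at 201.8, 167.6, 91.2, 31.5 and 106.6 RPM in place replicates 1 to 5, and at 76.9, 48.4, 36.3 and 13.6 RPM in silent replicates 1 to 4. Of the 5 place libraries, 4 lay above all silent libraries, and place replicate 4 lay among them. The log2 difference was 1.45 ± 0.63 (SE; limma, adjusted p = 0.861). Elfn1, whose protein recruits mGluR7 across the synapse at some interneurons, was at 0, 0, 0, 0 and 6.84 RPM in place replicates 1 to 5 and at 18.9, 12.1, 6.88 and 0 RPM in silent replicates 1 to 4. Its log2 difference was -5.08 ± 2.48 and that of the G-protein subunit gene Gnb4 was -4.96 ± 2.36 (SE; limma, adjusted p = 0.861 for both). For signal termination, 10 of 12 names were in the table and tested, 4 positive and 6 negative (median -0.28). The RGS genes, which speed the shut-off of G proteins, had differences in both directions, 4.77 for Rgs8, 3.39 for Rgs4, 0.03 for Rgs2, -0.64 for Rgs7 and -1.10 for Rgs14, while Rgs7bp, which anchors an RGS protein at the membrane, had one of -0.72. None passed the adjusted threshold (limma).

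**Figure D5:**
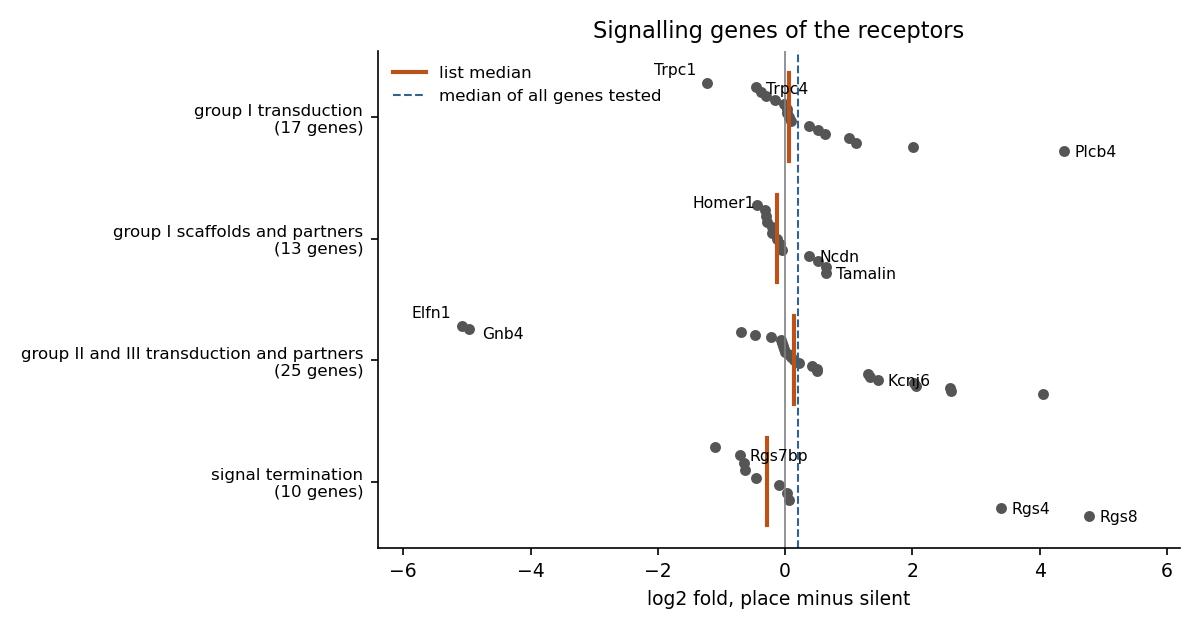
Log2 fold of place over silent libraries for the tested signalling genes in each of the 4 lists, 1 point per gene, with the list median as a bar and the median of all genes as a dashed line; the named genes are the 3 of each list with the smallest p. List medians ran from -0.28 to 0.13, beside 0.20 over all genes.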

How the data were processed

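SMART-Seq mRNA LP libraries of nuclear RNA were sequenced, per the labels' protocols, and STAR, HTSeq and the GRCm39 build are listed, per the submitters' processing notes, without versions, roles or settings. The deposited table holds a normalised signal per gene and library, and how the authors made it is not stated. From the values, each gene's signal was whole reads times a factor of that gene alone, with no scaling between libraries. Whole reads came out within 0.05 for 98.8% of 31052 genes, holding 99.95% of the reads, and for every member. Libraries were then scaled by TMM computed in Python, and RPM are recovered reads per 1000000 of scaled depth. Exon lengths and chromosomes come from the GENCODE vM21 annotation of GRCm38, which is not the build of the table, so no coordinates are given. Levels per kilobase depend on those lengths.

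Place was compared with silent by limma 3.58.1 in R 4.3.3, with trend, on log2(scaled deposited value + 1) for the 15225 genes that reached 10 in 4 or more libraries, with Benjamini-Hochberg adjustment over all of them at 0.05. Groups were taken from the titles, and replicates were numbered in the order listed. The script was tested on simulated data. Depth was 14.05 M to 22.4 M reads per library, and intervals are exact Poisson at 95%. Genes named beyond the members were the 3 of each signalling list with the smallest p and 3 further RGS genes, which were added after their values were seen. For each member, the 3 genes with the highest correlation were also named, with symbols of predicted gene models left out. Another gene of the family is not reported here. The members, lists and tests were chosen with earlier results of these data known. Alternatives covered scaling, constants, filters, covariates and left-out libraries. The Y-linked covariate and the fit on log2(RPM + 1) were added after seeing the data. Other tools were Python 3.11.15, pandas 2.3.3, NumPy 2.4.6 and SciPy 1.17.1.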

Additional observations from a re-analysis of the deposited data

Results flagged for a closer look

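In 4 of the 16 groups of values examined, 1 library lay far from the others of its class by Dixon's test at 95%. Chance alone flags about 5% of independent groups, but these groups are not independent. Grm2 was at 1.11 RPM in silent replicate 2, with the other silent libraries at 0, so any value above 0 would have been flagged. Grm3 was at 22.9 RPM in silent replicate 4, with the next silent library at 3.71 RPM. That library, through the same Grm3 reads, had 5.18% of its receptor reads per kilobase in group II, with the next at 0.806%. In silent replicate 2, group III held 11.9%, with the next lowest silent library at 19.8%, and that library had the highest Grm5 level.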

How the results depend on the processing

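No member passed the adjusted threshold under any alternative run. Grm3 kept its sign throughout (0.50 to 4.73), and Grm2 did under all but the Y-linked covariate, where it was -1.42. In the fit with that covariate, only place replicate 1 was compared with the silent libraries. Grm5 was -0.026 with oligodendrocyte markers as covariate and -0.31 without the 3 libraries apart, and Grm7 was -0.17 and -0.056 under these; with the Y-linked covariate they were 0.37 and 0.69, and Grm7 was 0.43 with genes detected as covariate. Leaving out 1 library at a time gave -0.089 to 0.23 for Grm5, 4.95 to 7.52 for Grm2, 0.50 to 4.16 for Grm3, -1.34 to 0.24 for Grm4 and -0.047 to 0.23 for Grm7. The causes of these changes were not tested. Genes called over the table numbered 0, against 4 with voom and 0 to 1 with a library left out (1 without place replicate 1). The fit with the Y-linked covariate called 224, all lower in place replicate 1 alone than in the silent libraries. That number therefore describes a single place library and not the place cells as a class. The median difference of all genes was 0.20, against 0.01 under quantile normalization and -0.03 with genes detected as covariate. The planned DESeq2 and edgeR fits were not run. No paired analysis was possible because the labels give no replicate numbers shared between the classes. Depth limits Grm8, and the zeros of Grm2 and Grm3 leave their folds dependent on the added constant.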
